A study of Mus musculus with 18 samples.

Results

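Whole-genome bisulfite sequencing (WGBS) of CD11b+ (myeloid) and CD4+ (T helper) cells from the spleen compared Dnmt3a R878H/+ mice (R878H) with Dnmt3a+/+ mice (WT). The regions described here were unmethylated in WT cells and more methylated in R878H cells. A region was a row of the table that the region caller metilene produced for 1 cell type, and it belonged to the set when it was autosomal, its WT group mean was below 10% and its R878H group mean was at least 10 percentage points higher. By that rule 1515 of 955371 autosomal regions were gaining regions, 1469 of 407396 for CD11b+ and 46 of 547975 for CD4+. The shares were 0.361% and 0.00839% of the autosomal regions of each table. The members were thus selected on the 2 group means, so the means and gains given for them describe the set and carry no test.

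Each genotype was represented by 4 mice per cell type. The study states for its mice in general an age of 8 to 10 weeks and pooling of both sexes. The age and sex of the WGBS mice are not given separately. R878H mice carried the mutation on 1 Dnmt3a allele after recombination of a floxed allele by Vav1-iCre, a transgene driven by regulatory sequence of Vav1, inserted in Commd10 and active throughout the blood system. The study's controls without the mutation were either Cre-positive Dnmt3a+/+ or Cre-negative Dnmt3a fl-R878H/+ mice, and which of these gave the WGBS samples was not given in the sources used here. The 18 label entries cover 16 samples, since R878H CD11b replicates 3 and 4 have a pair of entries each. The S-numbers in the labels fall into a lower and a higher series. All R878H CD4 entries and 1 WT CD4 entry are in the higher series, as is 1 entry of each R878H CD11b pair. All WT CD11b entries are in the lower series. What the series stand for is not given in the labels, and the group means cannot separate them from genotype. The tables hold 1 mean per group and region and no value of a single mouse, so neither the spread between mice nor the depth behind a mean can be given. In every region of both tables the group means had the decimals expected of 4 equally weighted samples. With 6 samples assumed, 50.1% of the WT means of CD11b+ cells did. The column order is not labelled in the files, and WT was read as the first group because the study describes lower methylation in R878H cells genome-wide. Every direction below rests on that reading.

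Dnmt3a encodes a de novo DNA methyltransferase, an enzyme that adds methyl groups to cytosines followed by guanine (CpG sites). R878H in the mouse corresponds to the most frequent DNMT3A mutation of human clonal haematopoiesis and lowers the activity of the enzyme. CpG-rich stretches at gene starts, called CpG islands, are normally free of methylation in blood cells, and methylation there usually accompanies silencing of the gene.

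The labelled cell types were compared with the methylation of marker gene starts in WT cells. Only markers with a listed region within 1 kb of a start in both tables can be set side by side. Over the 6 of 16 T-cell markers of which this held, the median WT methylation was 27.1% for CD4+ and 43.9% for CD11b+, lower for CD4+ at 4 of the 6. Over 9 of 16 myeloid markers it was 64.1% for CD11b+ and 87.7% for CD4+, lower for CD11b+ at all 9. Over 7 of 10 markers of B cells, the other main cell type of the spleen, it was 41.6% for CD11b+ and 65.2% for CD4+. It was lower for CD4+ at 2 of the 7. Over all markers listed for CD11b+, the WT and R878H medians were 63.0% and 38.7% (myeloid), 65.7% and 52.9% (T-cell), and 47.6% and 48.7% (B-cell). For CD4+ they were 87.8% and 73.4%, 37.2% and 39.1%, and 65.2% and 42.0%. Whether cell composition differed between the genotypes was not tested.

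Of 8404 autosomal regions with a WT mean below 10% in CD11b+ cells, 17.5% were gaining regions, against 0.586% of 7847 in CD4+ cells. These and all later shares are of regions that the caller listed, and 0 of these had equal means in either table. Unmethylated sequence without a listed difference is not counted, so the shares are not of all unmethylated sequence. In CD11b+ cells the median WT mean of the gaining regions was 0.679% (quartiles 0.327% to 1.32%) and the median R878H mean was 22.2% (quartiles 16.3% to 29.9%). The gain, always the R878H mean minus the WT mean, ran from 10.0 to 53.2 points with a median of 20.8. In CD4+ cells the WT means were higher, with a median of 5.50%, and the median R878H mean was 17.5%. The median gain there was 11.2 points, and 2 of 46 regions gained at least 20 points, against 781 of 1469 in CD11b+ cells. In 181 of the CD11b+ gaining regions the WT mean was 0, and 64.9% of them had a WT mean below 1%, against 6.52% in CD4+ cells. The remaining WT-unmethylated regions had a median difference of -0.854 points for CD11b+ and -1.07 points for CD4+. By the rule and their WT means they could neither gain nor lose 10 points.

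**Figure D1:**
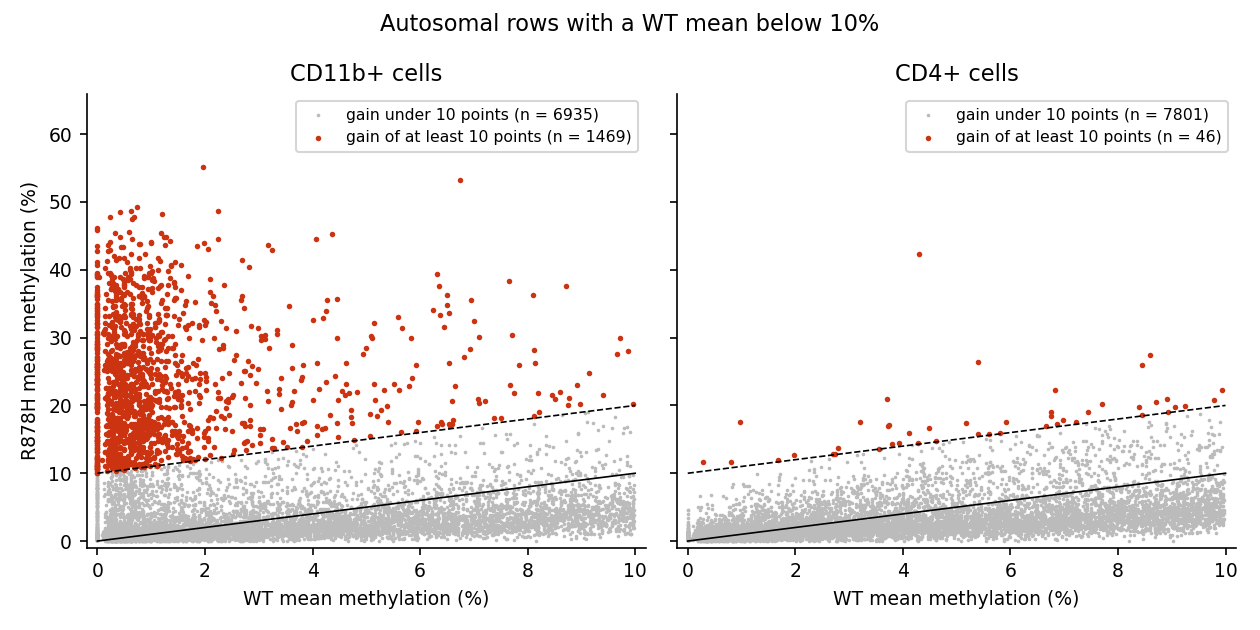
WT group mean (horizontal axis, %) against R878H group mean (vertical axis, %) for each autosomal region with a WT mean below 10%, with CD11b+ cells on the left and CD4+ cells on the right. Each point is a region, red points lie on or above the dashed line of a 10-point gain, and the solid line marks equal means. The 1469 red points of CD11b+ cells crowd below a WT mean of 2%, whereas the 46 of CD4+ cells are spread over WT means from 0.275% to 9.93%.

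The rule cut through a continuous range in both cell types. In CD11b+ cells 90 regions gained 10 to 11 points (median WT 0.825%, R878H 11.4%) and 66 gained 9 to 10 points (median WT 0.841%, R878H 10.4%). In CD4+ cells 22 of the 46 gaining regions lay within 10 to 11 points, and another 22 regions lay just under the limit at 9 to 10 points.

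The group means bound how many samples of a group held reads called methylated. A mean of 4 samples above 25% needs such reads in at least 2 of them, and a mean above 50% in at least 3. Whether all such reads came from methylated genomic DNA was not tested. In CD11b+ cells 39.5% of the gaining regions exceeded an R878H mean of 25%, 578 of them between 25% and 50% and 2 above 50%. For the other 889 the means are compatible with reads called methylated in 1 sample or in all 4. In CD4+ cells 4 of 46 exceeded 25%.

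The caller's own q-value was below 0.05 for 51 of the 1469 CD11b+ gaining regions and 2 of the 46 in CD4+ cells. Among all regions with a WT mean below 10%, 0.607% for CD11b+ and 0.0382% for CD4+ were higher in R878H at that limit. The 51 regions differed from the other 1418 in the number of CpG cytosines counted, with a median of 33.0 against 11.0, and had a median gain of 31.3 against 20.4 points. In 48.2% of the 1418 the caller had counted exactly 10 cytosines, the fewest that a listed region held. With more than 10 cytosines and a gain of at least 20 points asked for as well, the limits closest to those of the study, 43 CD11b+ regions and 1 CD4+ region remained. The study states its limit as more than 10 CpGs, whereas the cytosines here are of both strands, so that 1 CpG site can count as 2.

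The gaining regions present in both tables are shown by sequence, with 1 that gained in CD4+ cells. They are the largest gain of both tables (Vav1), the second largest promoter gain of CD4+ cells (Gria4), and the other loci present in both tables (upstream of 1700037H04Rik, and Tpd52-ps). Each is read from the GRCm38 (mm10) assembly on the strand of the gene nearest to the region, 5′ to 3′, over the region or its central 300 bases, with CpG sites in capitals.
Vav1 intron 1, chr17:57279535-57279834, plus strand: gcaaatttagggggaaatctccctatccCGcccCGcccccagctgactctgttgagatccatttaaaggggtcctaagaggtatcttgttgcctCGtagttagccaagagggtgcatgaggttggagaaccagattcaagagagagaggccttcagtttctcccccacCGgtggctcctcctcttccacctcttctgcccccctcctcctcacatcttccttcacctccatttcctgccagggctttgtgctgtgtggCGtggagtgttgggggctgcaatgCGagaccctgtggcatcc
Gria4 start, chr9:4796185-4796266, minus strand: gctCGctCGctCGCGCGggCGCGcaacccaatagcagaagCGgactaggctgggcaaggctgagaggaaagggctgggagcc
1700037H04Rik upstream, chr2:131160708-131161007, minus strand: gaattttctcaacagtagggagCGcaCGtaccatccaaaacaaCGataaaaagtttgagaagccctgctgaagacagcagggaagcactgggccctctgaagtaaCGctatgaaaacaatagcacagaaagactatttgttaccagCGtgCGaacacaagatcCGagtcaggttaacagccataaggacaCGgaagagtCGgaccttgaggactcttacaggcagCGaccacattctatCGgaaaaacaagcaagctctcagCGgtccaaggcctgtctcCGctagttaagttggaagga
Tpd52-ps, chr8:79680557-79680818, minus strand: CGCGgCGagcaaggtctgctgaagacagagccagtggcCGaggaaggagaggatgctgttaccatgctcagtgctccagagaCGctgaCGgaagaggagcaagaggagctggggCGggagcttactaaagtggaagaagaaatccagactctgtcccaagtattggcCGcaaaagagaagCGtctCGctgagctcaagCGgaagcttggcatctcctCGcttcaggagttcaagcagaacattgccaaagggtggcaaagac
The window of Vav1 holds 6 CpG sites. Those of the loci at 1700037H04Rik and Tpd52-ps hold 13 and 12, and the 82 bases at Gria4 hold 8.

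The largest gain in both cell types lay in the first intron of Vav1, which encodes a guanine nucleotide exchange factor for small GTPases in blood cells. In CD11b+ cells the region at chr17:57279430-57279938 (12 cytosines counted) had a WT mean of 1.96% and an R878H mean of 55.2%, the highest of any gaining region. In CD4+ cells the region at chr17:57279385-57279973 (20 cytosines) had means of 4.30% and 42.3%. Both had a q-value below 0.05. The R878H means require reads called methylated in at least 3 of 4 samples for CD11b+ and at least 2 for CD4+. The rest of the gene went the other way. Of 18 regions within 1 kb of Vav1 or inside it in CD11b+ cells 16 were lower in R878H (median difference -6.39 points), as were 12 of 15 in CD4+ cells (median -6.14 points). Sequence of Vav1 also drives the Cre transgene of the R878H mice, and reads from the gene and from the transgene cannot be told apart in these tables.

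Commd10, the insertion site of the transgene, held no gaining region in either table. There, all 64 CD11b+ regions and 74 of 79 CD4+ regions were lower in R878H. Dnmt3a itself held none either, and 45 of 46 regions were lower in R878H in each cell type (median differences -10.3 and -9.96 points).

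Of the 12 largest gains of CD11b+ cells, 10 lay mainly in coding sequence. Actb, encoding beta-actin of the cytoskeleton, had a WT mean of 0.730% and an R878H mean of 49.3% over 25 cytosines. Hnrnpa0, an RNA-binding protein gene with a single exon, went from 0.417% to 48.5%, and 2 further regions of its exon had R878H means of 45.4% and 26.9%. Mcl1, an anti-apoptotic gene on which myeloid cells depend, had means of 0.625% and 48.6% in its second exon and of 0% and 41.2% in its first. The kinase gene Pim1 (0.225% and 47.8%), the glutathione peroxidase gene Gpx1 (0.688% and 47.8%) and the sorting receptor gene Sorl1 (1.20% and 48.2%) followed. Cebpb, a transcription factor of myeloid differentiation without introns, had means of 0.648% and 47.5% over 22 cytosines with a q-value below 0.05. Zfp36, which encodes an mRNA-destabilising protein, had means of 2.25% and 48.6%. Gspt1, a translation termination factor, and Pan3, a part of an mRNA deadenylase, had WT means of 0 with R878H means of 46.2% and 45.8%. Of these the caller's q-value was below 0.05 only for Vav1 and Cebpb among the 12 largest gains. One of the 12 had no protein-coding gene nearby. It lay in Oaz1-ps, a processed pseudogene on chromosome 17 (17345601 to 17346157), with means of 6.75% and 53.2%. Reads from Actb and from Oaz1-ps can be shared with near-identical copies elsewhere, so their values are uncertain.

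The regions with the most counted cytosines gave the same picture with more sites behind each mean. Trim27, encoding a RING-finger ubiquitin ligase, had means of 0.932% and 37.2% over 59 cytosines. Pcbp1, an RNA-binding protein gene without introns, had 0.582% and 45.6% over 46 cytosines. Junb, an AP-1 transcription factor gene without introns, had 0.228% and 44.1% over 45 cytosines. All 3 had a q-value below 0.05, as did one of the longest regions, in Zfp36l2 (0.785% and 43.8% over 924 bp).

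**Figure D2:**
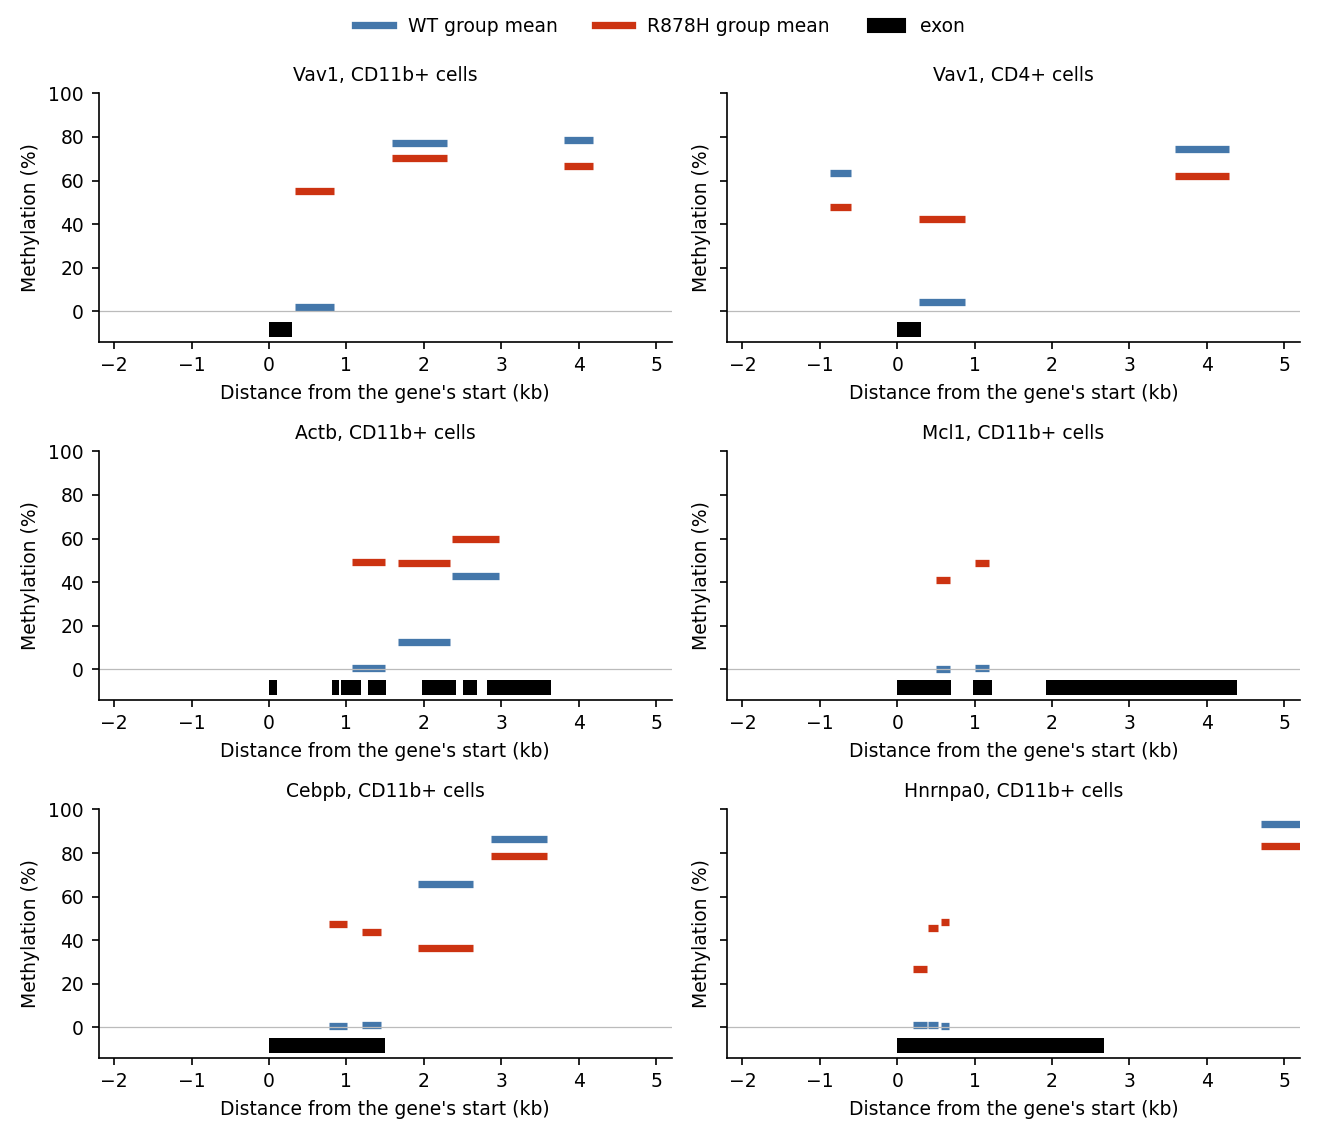
Group mean methylation (vertical axis, %) of every listed region from 2 kb upstream to 5 kb downstream of 5 gene starts, against distance from the start (horizontal axis, kb). Blue segments are WT means, red segments R878H means, and black boxes are exons. In Actb, Mcl1, Cebpb and Hnrnpa0 the red segments of the gaining regions reach 26.9% to 49.3% over WT means near 0. In Actb 2 further red segments, at 48.7% and 59.6%, lie over WT means of 12.6% and 43.0%. In Vav1 the separated pair lies behind the first exon in both cell types.

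In Actb the gain went on into regions that the rule did not select. The next 2 regions downstream, over later exons and introns, had a WT mean of 12.6% with an R878H mean of 48.7% and a WT mean of 43.0% with an R878H mean of 59.6%. In Cebpb, by contrast, the region just beyond the exon was lower in R878H, at 36.5% against 65.8% in WT, with a q-value below 0.05.

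The position of the gaining regions of CD11b+ cells relative to gene starts was not used by the rule. Of the 1469, 1247 (84.9%) lay within 1 kb of the start of a protein-coding transcript, 187 elsewhere inside such a gene and 35 in neither. By their middles, 1061 of the 1469 lay up to 1 kb downstream of the nearest start and 153 up to 1 kb upstream. Of all 8404 WT-unmethylated regions, 3148 and 1393 did. The share of gaining regions among those with a WT mean below 10% was 41.1% where the middle of the region lay up to 250 bp downstream of the nearest start (498 of 1211) and 14.3% up to 250 bp upstream (106 of 739). Over 1 kb it was 33.7% downstream and 11.0% upstream, and beyond 5 kb on either side it was 2.67%. In CD4+ cells the same shares were 0.761%, 0.489% and 0.650%, all close to the 0.586% of all such regions.

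**Figure D3:**
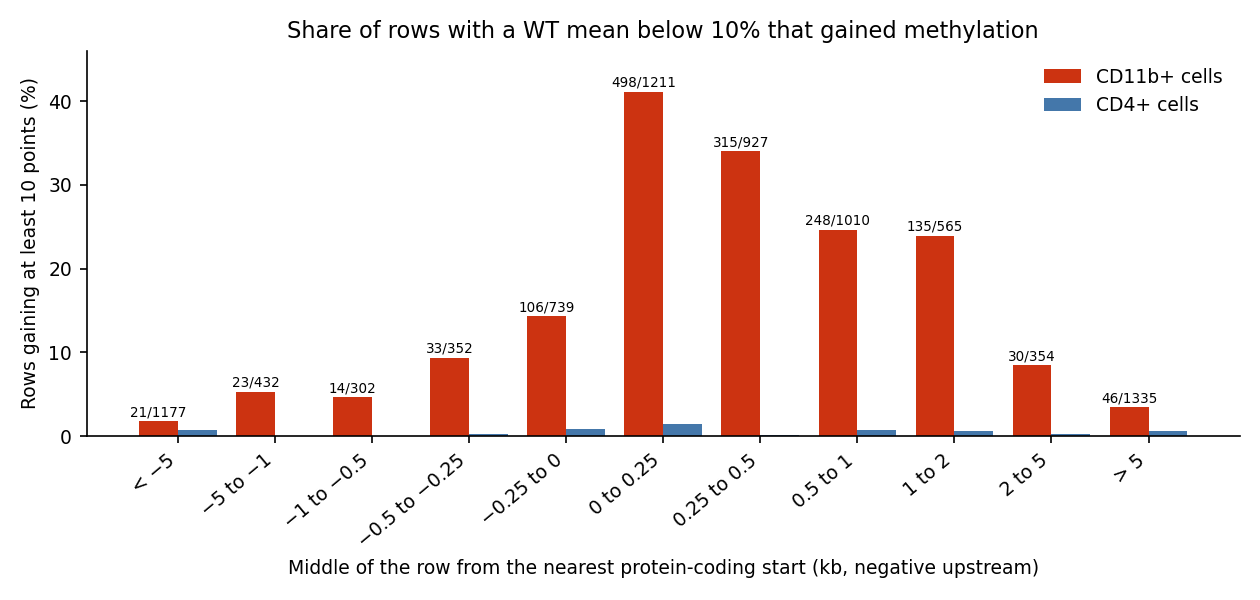
Share of WT-unmethylated regions that gained at least 10 points (vertical axis, %) by the position of the middle of the region relative to the nearest protein-coding start (horizontal axis, kb, negative upstream). Red bars are CD11b+ cells, with gaining and total regions above each bar, and blue bars are CD4+ cells. The red bars step up from 14.3% to 41.1% across the start and fall off downstream.

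Exon content differed as well. Of the bases of the CD11b+ gaining regions, 56.1% were coding and 18.9% were 5′ UTR, against 7.26% and 7.49% in the WT-unmethylated regions below the 10-point limit. Introns held 16.9% of the bases against 42.7%, and intergenic sequence 0.784% against 26.9%. Among regions lying entirely in exons, 51.3% gained at least 10 points (990 of 1929), and among those without an exon base 3.47% did (168 of 4841). Mixed regions were between, at 9.48% with up to 50% of their bases in exons and 30.7% with more. In CD4+ cells the share was 1.52% for fully exonic regions (14 of 920) and 0.430% for those without exon bases (24 of 5582).

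The exon difference was present within classes of sequence composition and of the share of sites counted. Gaining regions of CD11b+ cells had a median GC content of 66.2% and 9.78 CpG sites per 100 bp, against 54.9% and 4.12 in the others. Within each of 4 classes of GC content, from under 50% to over 70%, fully exonic regions gained in 30.7% to 57.0% of cases and regions without exon bases in 1.59% to 13.7%. The caller had counted a median of 48.0% of the CpG cytosines in the gaining regions and 58.8% in the others. Where it had counted over 80% of them, 38.8% of fully exonic and 2.32% of non-exonic regions gained, and where it had counted under 40%, 57.7% and 6.03% did.

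Regions with few exon bases lay close to some of the exonic gaining regions. Of 1052 gaining regions with at least 90% of their bases in exons, 185 had a WT-unmethylated region with at most 10% exon bases within 1 kb, whether or not in the same gene. These neighbours had a median WT mean of 1.20% and a median difference of -0.161 points, and 13 of the 185 were themselves gaining regions. The exonic regions were chosen for their gain and the neighbours were not, so the gains of the pairs are not compared.

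A similar split was present in regions that the rule had not used. Among CD11b+ regions with a WT mean of 10% to 50%, 1.74% gained at least 10 points, and in CD4+ cells 2.41% did. In CD11b+ cells the share was 6.49% for fully exonic regions (66 of 1017) and 1.49% for those without exon bases, and in CD4+ cells it was 4.81% and 2.27%. At genes that held a CD11b+ gaining region, 19 of 100 fully exonic regions gained, against 14 of 1417 without exon bases. At other genes the counts were 47 of 917 and 107 of 10266. The former genes were chosen by gains in the same CD11b+ group means, so their counts are not independent of the rule. In CD4+ cells the fully exonic regions of the genes with a CD11b+ gaining region stood at 6 of 134, against 52 of 1072 at other genes. Bisulfite reads of genomic DNA with methylated cytosines and reads derived from spliced RNA cannot be told apart in these tables, and whether RNA or cDNA in the R878H CD11b+ libraries contributed to the means of exonic regions was not tested.

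**Figure D4:**
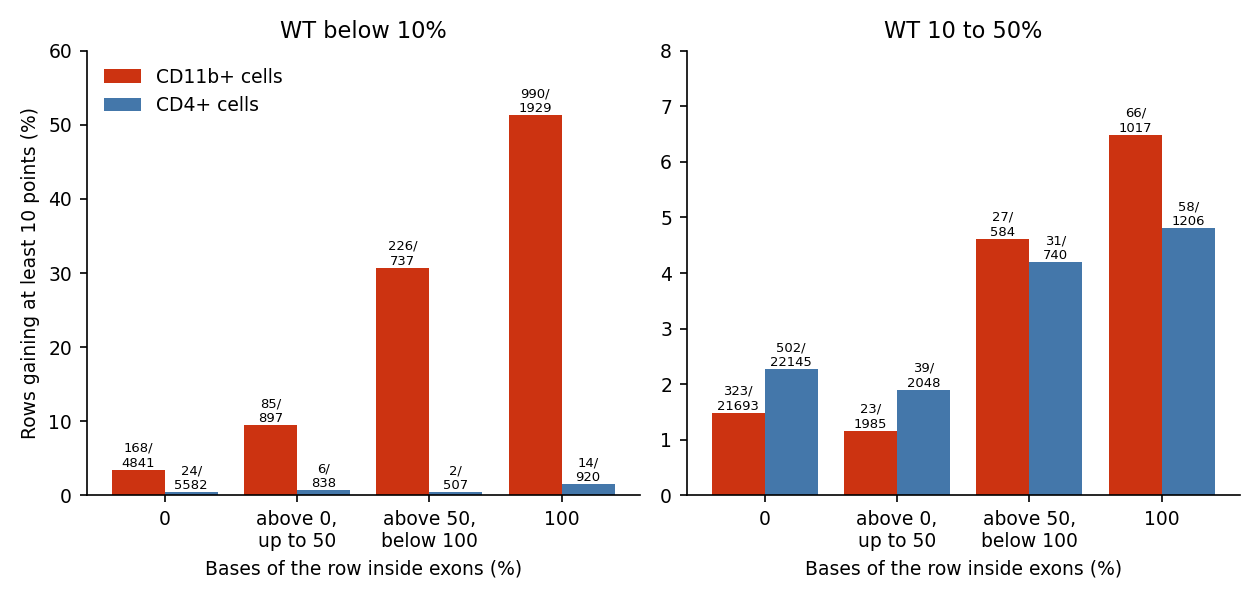
Share of regions gaining at least 10 points (vertical axis, %) by the percentage of their bases inside exons of protein-coding transcripts (horizontal axis), for WT means below 10% on the left and of 10% to 50% on the right, on different vertical scales. Red bars are CD11b+ cells, blue bars CD4+ cells, and gaining over total regions stand above each bar. The share climbs with exon content to 51.3% on the left in CD11b+ cells, and to 6.49% and 4.81% on the right.

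Genes without introns and processed pseudogenes hold exon sequence without intervening introns. A protein-coding gene was counted when a region lay within 1 kb of one of its starts or inside it. In CD11b+ cells 1281 of 5019 genes with a WT-unmethylated region held a gaining region, 25.5%, and in CD4+ cells 39 of 4625 did, 0.843%. Of all 20780 autosomal protein-coding genes, with or without a listed region, 6.16% did in CD11b+ cells and 0.188% in CD4+ cells. Of single-exon genes 45.4% held one in CD11b+ cells (79 of 174), and of genes with more exons 24.7%. Processed pseudogenes are copies of spliced mRNA set back into the genome. Of 15 WT-unmethylated CD11b+ regions that overlapped one, 5 were gaining regions (33.3%, against 17.5% of all such regions), and of 7 that overlapped a transcribed processed pseudogene 1 was (14.3%). Besides Oaz1-ps and Tpd52-ps, the 5 include E130201H02Rik, with means of 1.65% and 35.4%. In CD4+ cells 0 of 16 and 0 of 8 such regions gained. Reads of pseudogenes and their parent genes can be shared.

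Gene groups were read against the 25.5% of all genes with a listed WT-unmethylated region in CD11b+ cells, as a description without a test. Single-exon genes of any function stood at 45.4%, and whether the share of a group followed from the exon content of its genes was not tested. Of the transcription factors of myeloid cells, 12 of 14 with a WT-unmethylated region held a gaining region. They include Cebpb, Cebpd, a CEBP factor of inflammation (1.35% and 38.8%), Klf2, a regulator of leukocyte quiescence (2.10% and 38.7%), and Klf4 (0.405% and 32.9% with a q-value below 0.05). In Cebpa, which directs the granulocyte and monocyte lineage, the means were 2.02% and 32.3%. In Bcl6 the region (0.175% and 41.3%) had no exon base.

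Genes of RNA binding and splicing held gaining regions in 17 of 22 cases. Examples are Srsf2 (1.23% and 44.8%) and Srsf1 (1.68% and 39.1%), both encoding serine- and arginine-rich splicing factors. Immediate early and AP-1 genes, which respond within minutes to stimulation, did so in 14 of 19 cases, among them Myc (0.875% and 38.8%) and Junb. Cell cycle inhibitors and tumour suppressors did so in 8 of 11, with Cdkn1b, encoding the inhibitor p27 (0.784% and 40.2%), as an example.

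The counts were 12 of 23 for translation factor genes, 8 of 15 for signalling adaptors and GTPase regulators, 7 of 13 for histone genes, 6 of 11 for T-cell transcription factors and 3 of 6 for NF-kB factors and inhibitors. In Ikzf1, encoding the lymphoid regulator Ikaros, the CD11b+ means were 1.04% and 38.8%. Chaperone genes stood at 7 of 16 and Polycomb and Trithorax genes at 7 of 18. Ribosomal protein genes were close to all genes at 8 of 28, with Rpl8, a component of the large subunit, at 0.598% and 40.3%. Imprinted genes stood at 2 of 7, mTOR genes at 5 of 20 and zinc finger genes at 21 of 88. Osteoclast and inflammation genes stood at 2 of 10 and proteasome and ubiquitin genes at 5 of 28. Among the last groups named, Rptor, which encodes the raptor subunit of mTOR complex 1, had means of 0.521% and 33.1%, and Mmp9, a matrix protease gene of neutrophils and osteoclasts, had 6.54% and 33.6%.

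Of the lists with more than 10 such genes, those of developmental genes had the lowest shares. Homeobox genes had WT-unmethylated regions at 70 genes in CD11b+ cells, and 2 of these held a gaining region. They were Hoxb2 (0.429% and 27.3%) and the B-cell factor Pax5 (2.85% and 31.7%). Other developmental regulators stood at 3 of 38, and germline genes at 0 of 1. The DNA methylation and TET genes had no WT-unmethylated region listed in CD11b+ cells. In CD4+ cells 2 list genes held a gaining region, Vav1 and the zinc finger gene Zfp697.

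Several gaining regions often lay in 1 gene. In CD11b+ cells 264 genes held more than 1. Gm20388, an annotated gene covering several megabases of chromosome 8, held 8, Irf2bpl 7 and Tsc22d2 6. In Irf2bpl, a single-exon gene of the interferon regulatory factor 2 binding protein family, the gains ran from 14.2 to 36.8 points. In CD4+ cells no gene held more than 1.

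The gaining regions of CD4+ cells were a different set. Of the 46, 24 lay within 1 kb of a protein-coding start (52.2%), 10 elsewhere in a gene and 12 in neither. By their middles, 16 of the 46 lay up to 1 kb downstream of the nearest start and 7 up to 1 kb upstream. Of all 7847 WT-unmethylated CD4+ regions, 2102 and 1431 did. Coding bases made up 16.5% of the length of the gaining regions and introns 35.0%. In the WT-unmethylated CD4+ regions below the 10-point limit they made up 6.93% and 42.5%. After Vav1, the largest gain lay between genes, with Cryba4, a lens crystallin gene, as the nearest start 157185 bp away (5.40% in WT and 26.4% in R878H over 10 cytosines). Gria4, a glutamate receptor subunit gene, had means of 8.60% and 27.4% at its start, and Gabra5, a GABA receptor subunit gene, had 3.70% and 20.9%. The synaptic adhesion gene Nlgn1 had 3.92% and 14.4%, and Sstr1, a somatostatin receptor gene, had 5.17% and 17.4%. At 2 genes of lymphocyte signalling the regions were mainly intronic, with 6.86% of their bases in exons at Grap2 and 26.6% at Irf4. Grap2, encoding an adaptor of the T-cell receptor pathway, had means of 3.73% and 16.9%, and Irf4, a transcription factor of activated lymphocytes, had 5.92% and 17.6%. None of these 7 had a q-value below 0.05.

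Few gaining regions were common to both cell types. Of 1469 in CD11b+ cells, 6 overlapped a gaining region of CD4+ cells (0.408%), and 3 of 46 in CD4+ cells overlapped one of CD11b+ cells (6.52%). Of the WT-unmethylated regions below the 10-point limit, 0.0865% of CD11b+ and 1.56% of CD4+ ones overlapped a gaining region of the other cell type. The shared gaining regions lay at 3 loci, the Vav1 intron, the sequence upstream of 1700037H04Rik and Tpd52-ps. The chromosome 2 locus was 1 region of 89 cytosines over 1040 bp in CD4+ cells (chr2:131160050-131161089), the most of any gaining region in that table, with means of 3.20% and 17.5% and a q-value below 0.05. In CD11b+ cells the same stretch was divided into 4 regions, with R878H means of 13.7% to 20.8% over WT means of 1.98% to 4.01%. It starts at the 5′ end of 1700037H04Rik and runs upstream through an intron of the antisense gene Gm14232. At Tpd52-ps the means were 4.17% and 16.5% in CD11b+ cells, and 5.60% and 15.8% in an adjoining CD4+ region that shares 3 bp with it. The CD11b+ region with the longest overlap of that CD4+ region was another one, at 7.37% and 10.4%, which gained 3.04 points and was not a gaining region.

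Most gaining regions had no counterpart in the other table, and a region that a table does not list cannot be taken as unchanged. In CD4+ cells 154 of the CD11b+ gaining regions (10.5%) overlapped a listed region, against 46.3% of the WT-unmethylated regions below the 10-point limit. Over these 154 the median CD4+ means were 5.16% in WT and 3.19% in R878H, and the median difference was -2.45 points, with 46 higher and 108 lower in R878H. Over the 3209 overlapped regions below the limit it was -3.42 points, with 573 higher and 2636 lower. Thus 29.9% of the former and 17.9% of the latter were higher in R878H, and lower values in CD4+ cells were the more frequent in both. At least 10 points were gained in 6, which are the shared ones, or 3.90%, against 0.312% below the limit. The lowest difference was at Arhgef3, a guanine nucleotide exchange factor gene, where the WT and R878H means were 3.19% and 28.5% for CD11b+ but 57.7% and 15.2% for CD4+. At Skap1, encoding a T-cell adaptor, the CD11b+ means were 6.39% and 17.6% and the CD4+ means 47.3% and 18.2%.

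In the other direction 16 of the 46 CD4+ gaining regions overlapped a CD11b+ region. Their median difference in CD11b+ cells was 5.10 points, 13 were higher in R878H (81.2%) and 6 gained at least 10 points (37.5%). Over the 3228 overlapped WT-unmethylated CD4+ regions below the limit the median was -2.32 points, 23.3% were higher and 4.34% gained at least 10 points. Grap2 was among the 6 CD4+ gaining regions that gained at least 10 points in CD11b+ cells, at 32.3% in WT and 43.9% in R878H. In CD11b+ cells the intergenic region nearest Cwc27 stood at 51.2% and 61.7%, and that nearest Pced1b at 45.0% and 56.8%.

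**Figure D5:**
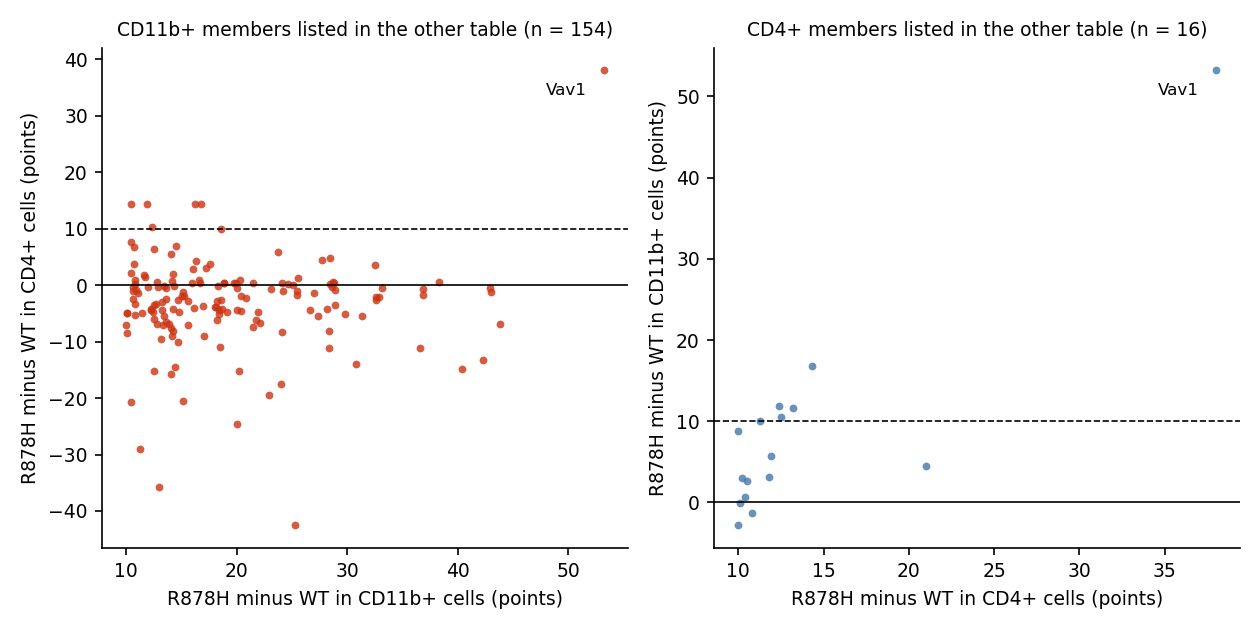
Difference between the R878H and WT means (percentage points) of gaining regions in their own cell type (horizontal axis) and in the overlapping region of the other cell type (vertical axis). The left panel holds 154 CD11b+ gaining regions and the right panel 16 CD4+ ones, the solid line marks no difference and the dashed line a gain of 10 points. Most points on the left lie below 0 (108 of 154), most on the right above it (13 of 16), where 17.9% and 23.3% of the WT-unmethylated regions below the 10-point limit, not drawn, were above 0, and Vav1 stands apart in both.

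Mitochondrial regions were listed for both cell types as well. Mitochondrial DNA, generally regarded as largely free of CpG methylation, had 20 listed regions in CD11b+ cells, and all 20 were higher in R878H (median 15.1% in WT and 18.1% in R878H). In CD4+ cells all 21 were lower in R878H (median 13.8% and 8.56%). Whether the mitochondrial differences are related to the autosomal gains was not tested.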

How the data were processed

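WGBS libraries were made by the study from DNA of column-selected splenic CD11b+ and CD4+ cells with the Zymo-Seq WGBS kit. BISCUIT was used by the authors for alignment to mm10, followed by metilene on the methylation ratios of CpG sites. Versions, settings and any coverage minimum are not given in the sources used here. The deposited table of each cell type gives, per region, both group means in percent, the number of cytosines and a q-value. The deposited q-value was used only as met or not met at 0.05. The authors' mean difference and their other p-values are comparison columns and were not used. The difference was recomputed from the group means.

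Starts were taken as counted from 0 and raised by 1. In the WT-unmethylated regions the cytosine count was at most 100% of the CpG cytosines on both strands of the genome sequence, and mostly lower. Regions were annotated with GENCODE M21 on GRCm38.p6, the assembly of mm10. Base classes were given in the order coding, 5′ UTR, 3′ UTR, noncoding exon, intron, upstream 1 kb, intergenic. Gene symbols are those of GENCODE, and the region's gene is a protein-coding start within 1 kb, otherwise the gene it lies in, otherwise the nearest start. The overlapping region of the other table was the one with the longest overlap, at least 1 bp. Scripts used Python 3.11.15, pandas 2.3.3 and pysam 0.24.0, and the overlap step was tested on simulated intervals. Sequences come from the RefSeq copy of that assembly.

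Regions named are the 12 largest gains of each cell type, all those shared, the genes with most gaining regions, up to 4 members per gene list, the 3 longest and the 3 with most cytosines, the 5 with the most negative difference in the other table, and Vav1, Commd10 and Dnmt3a. From these the text gives examples. Nlgn1 belongs to the most negative differences, and Sstr1, Irf4 and E130201H02Rik, with Cebpa and Klf4, were picked after their values were seen. The members and gene lists were chosen with earlier results of these data known. No test was made on the gains, since the same means chose the regions.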

Additional observations from a re-analysis of the deposited data

Results flagged for a closer look

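Some signals lay outside the autosomal regions that the comparisons used. On chromosome X, 2 CD11b+ regions met the same limits, among 10 with a WT mean below 10%. They lay in Kdm6a (0.613% in WT and 31.7% in R878H), which encodes a histone demethylase, and in Kdm5c (0.321% and 18.3%), another histone demethylase gene. In CD4+ cells 0 of 6 did. Over the 20 mitochondrial regions of CD11b+ cells the median difference was 2.67 points, higher in R878H than in WT, whereas it was -5.77 points over the 21 of CD4+ cells. The difference between the cell types was not tested.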

How the results depend on the processing

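The tables hold group means, so leaving out single mice was not possible, no spread between mice is known and the depth behind a region's mean is unknown. No paired analysis was possible because the tables hold 1 mean per group and no value by replicate number. Of 45 alternatives, 19 kept a result within the limits set for it (a count or median within 1.5 times, a share within the 95% binomial interval of the main value) and 26 did not, and in all of these the cause was not tested beyond the narrower or wider selection itself.

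The 1469 CD11b+ gaining regions became 781 at a gain of at least 20 points, 784 with more than 10 cytosines and 51 with a q-value below 0.05. The 46 of CD4+ cells became 20 at a WT mean below 5%, 85 below 15%, 310 at a gain of at least 5 points, 7 at 15 points, 2 at 20 points, 22 with more than 10 cytosines and 2 with a q-value below 0.05. The 6 CD11b+ regions shared with CD4+ cells became 1 with 50% reciprocal overlap, 15 with 5 points in the second cell type and 3 with a q-value below 0.05 in both. The median CD4+ difference at CD11b+ gaining regions turned from -2.45 to 7.01 points over the 6 with a q-value below 0.05, of which 3 are shared. The median CD11b+ difference at CD4+ gaining regions went from 5.10 to 10.0 points with 50% reciprocal overlap (3 regions) and 35.0 with a q-value below 0.05 (2 regions). The promoter share in CD11b+ cells went from 84.9% to 92.6% within 2 kb, 91.4% with any annotated start and 96.1% with a q-value below 0.05, and in CD4+ cells from 52.2% to 100% with a q-value below 0.05 (2 regions).

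The fully exonic share of gaining regions, with alternatives chosen after seeing the data, was 67.4% in CD11b+ cells. It was 73.4% at a gain of at least 20 points, 74.5% with a q-value below 0.05, 74.7% with more than 10 cytosines and 71.5% with at least 60% of CpG cytosines counted. In CD4+ cells it was 30.4%, and 0% at 20 points and 0% with a q-value below 0.05, over 2 regions each.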
